A study of Homo sapiens with 21 samples.

Results

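The mRNAs of the cytosolic translation initiation factors (EIF genes) were followed through 9 RNA-seq libraries of H1975, an established human lung adenocarcinoma cell line that carries mutant EGFR, a growth factor receptor kinase. Members were the rows of the expression table whose symbol starts with EIF1 to EIF6, without the EIF2AK kinases, antisense rows and pseudogenes. By that rule, 51 protein-coding genes of 34021 rows were members. Symbols of EIF4EBP1, EIF4EBP2 and EIF4EBP3 end like those of pseudogenes, but RefSeq annotates them as protein-coding, so they were kept. Set apart were 60 pseudogene rows, 2 antisense rows and 2 noncoding divergent transcripts, EIF2B5-DT and EIF3J-DT. EIF1AY is not reported.

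The libraries fell into 3 groups of 3, each cultured for 8 days. OC cells received 500 nM osimertinib, which binds and blocks mutant EGFR, with overexpression of cIGF1R, a circular RNA of the IGF1R gene. OL+EV cells received 500 nM osimertinib and 500 nM linsitinib, an inhibitor of the IGF1R and insulin receptor kinases, with EV, a label that is not spelled out, on a genotype given as WT. DMSO+EV cells received vehicle with EV on the same genotype. No group had osimertinib with EV alone, so the drug and the circular RNA cannot be told apart in OC against DMSO+EV, and linsitinib and the circular RNA cannot be told apart in OC against OL+EV. Osimertinib and linsitinib were given together in OL+EV, so they cannot be told apart in OL+EV against DMSO+EV. Separate cultures are not stated for the replicates, and the p-values therefore describe library-to-library spread that could be technical alone. In bulk RNA, fewer cells with a transcript and less of it per cell cannot be told apart. The other 12 of the 21 samples are circular RNA libraries, not analysed here.

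Initiation places a ribosome at the start codon of an mRNA. eIF2 carries the initiator tRNA and is recharged with GTP by its exchange factor eIF2B, eIF3 and the eIF1 proteins prepare the small ribosomal subunit, and eIF4F (the cap-binding eIF4E, the scaffold eIF4G and the helicase eIF4A) recruits the mRNA. The 4E-BP proteins hold back eIF4E until mTORC1, a kinase complex downstream of growth factor receptors, phosphorylates them, which ties initiation to receptor signalling in tumour cells. Many mRNAs of the translation machinery start with a C and a run of pyrimidines, the 5′ terminal oligopyrimidine (TOP) tract, through which mTORC1 and the protein LARP1 control their translation and stability.

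Values are FPKM, fragments scaled to transcript length and to library size, and give a share of each library. Column totals ran from 338034 to 474156, and read depth is unknown. Transcripts of mitochondrial DNA took 6.08% to 7.28% of the total in OC, 20.4% to 25.6% in OL+EV and 20.3% to 30.4% in DMSO+EV. Pearson's r across genes lay between 0.986 and 0.994 within groups and between 0.817 and 0.929 across groups. DMSO+EV replicate 2 stood apart with 443 FPKM of RN7SL1, the RNA of the signal recognition particle, against 46.4 and 36.1 in replicates 1 and 3, and OC replicate 1 held 53.2 against 3.16 and 6.37 in OC replicates 2 and 3. The 6 epithelial markers summed to between 12400 and 15200 FPKM in OC, 13200 and 14400 in OL+EV, and 11200 and 12500 in DMSO+EV. PTPRC and CD3E, 2 of the 5 leukocyte markers, stayed at 0.0352 and 0.0421 FPKM or below. CD14, in the same list, ran from 0.925 to 3.99 FPKM, highest in OC replicate 3, and made up most of the leukocyte sum. That sum was 2.27 to 4.25 in OC, 1.18 to 2.25 in OL+EV and 1.44 to 1.99 in DMSO+EV. Sums for 5 leukocyte markers stayed at 4.25 or below, for 3 fibroblast markers at 6.05 or below and for 3 endothelial markers at 0.492 or below, the fibroblast sum being 5.53 to 6.05 in OC, 3.20 to 3.54 in OL+EV and 3.35 to 3.70 in DMSO+EV. The part of these differences in the results was not tested. The labels carry an extraction protocol that names RNase R, which digests linear RNA, and whether these libraries had it is not settled.

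Initiation factor mRNAs had a lower summed level in OC than in either other group. Their summed level was 1859 ± 144 FPKM in OC, 2409 ± 131 in OL+EV and 3134 ± 187 in DMSO+EV (SD, n = 3). Outside mitochondrial transcripts they made up 0.559% to 0.565% of the total in OC, 0.702% to 0.743% in OL+EV and 0.885% to 0.952% in DMSO+EV, with no overlap between groups. Of the whole total, mitochondrial transcripts included, they made up 0.521% to 0.531% in OC, 0.522% to 0.591% in OL+EV and 0.616% to 0.759% in DMSO+EV, where OC and OL+EV overlapped and both lay below DMSO+EV. The most abundant members in DMSO+EV were EIF5A with a mean of 501 FPKM and EIF4A1 with 399. The filter of at least 1 FPKM in at least 3 libraries left out EIF4E1B, EIF4E3 and EIF4EBP3. EIF5A2 passed it through the DMSO+EV libraries alone, the group where it was highest. Its falls against DMSO+EV are in the counts below but are no support for them.

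Of the 48 members tested in OC against DMSO+EV, 39 fell, 3 rose (EIF2S2, EIF4A2 and EIF4EBP2) and 6 were not called (limma, Benjamini-Hochberg adjusted p under 0.05 over 13775 genes). Among all genes tested, 35.8% were called lower and 33.1% higher, 69% in either direction. All 3 OC libraries lay below the DMSO+EV libraries for 39 members (36.5% of all genes) and above them for 3 (33.3%). The members' median log2 fold change was -0.58, against -0.03 for all genes tested. Of the 39, 13 fell by at least 1 on the log2 scale, which 11.4% of all genes did, and 0 rose by as much, as 10.4% of all genes did. Among the 13 are EIF3C with its copy EIF3CL and EIF5A with its copy EIF5AL1, and copies may share reads. The counts were 3 higher and 38 lower without DMSO+EV replicate 2, and 3 higher and 36 lower without OC replicate 1. All fold changes are on the log2(FPKM + 1) scale, which understates those of low genes.

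In OL+EV against DMSO+EV, 25 members fell, 6 rose (EIF1, EIF1B, EIF2D, EIF4A2, EIF4B and EIF4G3) and 17 were not called, where 23.5% of all genes were called lower and 29% higher, 52.6% in either direction. OL+EV lay below DMSO+EV without overlap for 27 members (27.6% of all genes) and above it for 7 (34.3%). The median was -0.27 for the members and 0.05 for all genes tested, and 3 members fell by at least 1, as 5.54% of all genes did, and 0 rose by as much (3.65%). Without DMSO+EV replicate 2, the counts were 3 higher and 19 lower, and without OL+EV replicate 1 or 2 each, 2 were called higher. Median-of-ratios rescaling left 2 called higher.

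OC against OL+EV gave 28 members lower, 5 higher (EIF2S2, EIF4EBP2, EIF4G1, EIF4G2 and EIF5) and 15 not called, with 34.8% of all genes called lower and 25.9% higher, 60.7% in either direction. OC lay below OL+EV without overlap for 30 members (38.4% of all genes) and above it for 7 (29.6%). By at least 1 on the log2 scale, 4 members were lower (4.38%) and 1 was higher (6.58%). EIF3C and its copy EIF3CL are both among the 4. The median was -0.37 for the members and -0.09 for all genes tested. Under median-of-ratios rescaling the median of all genes tested moved to 0.03, the counts for the members to 22 lower and 8 higher, and those for all genes to 26.7% lower and 32.4% higher. Without OC replicate 1, 4 members were called higher and 24 lower. The comparisons share groups, so their counts are not independent of each other.

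**Figure D1:**
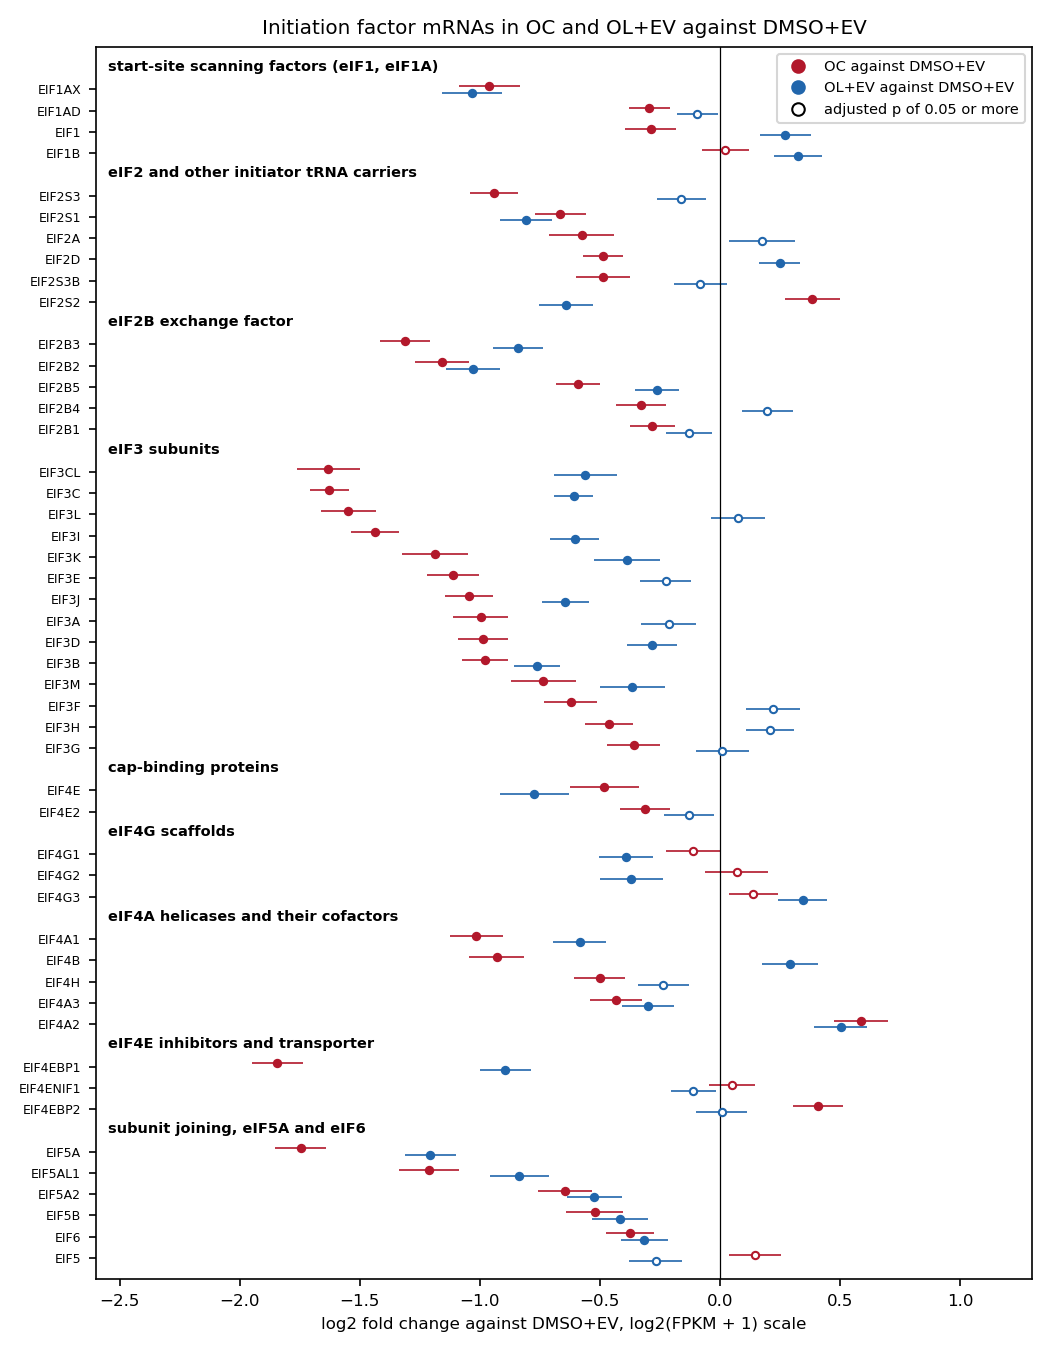
Log2 fold changes of the 48 members tested, grouped by role, in OC (red) and OL+EV (blue) against DMSO+EV, on the log2(FPKM + 1) scale, with standard errors from limma as bars. Filled points had an adjusted p under 0.05. In OC the 14 eIF3 subunits lie left of 0, and EIF2S2, EIF4A2 and EIF4EBP2 are the filled red points right of it.

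A TOP-like start stands in 10 members in the RefSeq promoter table of GRCh38.p14, and these are shown because start type is set beside the fold changes in OC against OL+EV further on. A TOP-like start was a C at the annotated first base followed, on the transcribed strand, by at least 4 pyrimidines (C or T). A gene was counted if any of its listed starts matched, and EIF2S3B, with 2 listed, is shown by the matching one. Each window runs 5′ to 3′ from 20 bases before the start through the first 20 bases of the transcript, and capitals mark the C and its run of pyrimidines.
EIF2A: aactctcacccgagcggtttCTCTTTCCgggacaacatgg
EIF2D: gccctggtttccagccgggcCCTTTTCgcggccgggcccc
EIF2S3: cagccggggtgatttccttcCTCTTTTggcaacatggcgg
EIF2S3B: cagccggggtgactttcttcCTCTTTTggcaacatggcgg
EIF3D: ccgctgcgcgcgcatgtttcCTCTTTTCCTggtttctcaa
EIF3F: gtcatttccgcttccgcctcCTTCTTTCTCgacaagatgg
EIF3K: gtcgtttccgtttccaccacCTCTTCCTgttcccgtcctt
EIF3M: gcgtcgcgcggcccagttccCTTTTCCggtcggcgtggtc
EIF4A2: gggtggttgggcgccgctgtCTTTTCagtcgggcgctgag
EIF4B: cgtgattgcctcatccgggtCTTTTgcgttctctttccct
The windows lie at chr3:150546767-150546806 (+), chr1:206612446-206612485 (-), chrX:24054936-24054975 (+), chr12:10505870-10505909 (+), chr22:36529147-36529186 (-), chr11:7987317-7987356 (+), chr19:38619168-38619207 (+), chr11:32583811-32583850 (+), chr3:186783557-186783596 (+) and chr12:53006436-53006475 (+), in the order shown. Runs were 5 bases long in EIF4B and 10 in EIF3D and EIF3F. EIF2S3B is a copy of EIF2S3, and from the start on both windows read the same.

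Windows of EIF3I, EIF4E, EIF4G1, EIF4G2 and EIF5 are shown for contrast, with no such start and therefore no capitals. Their choice followed no set rule, and they do not stand for all members without the start. In OC against OL+EV, EIF4G1, EIF4G2 and EIF5 were called higher, EIF3I lower and EIF4E not at all. Of the 30 tested members without the start, 4 were called higher there and 12 lower.
EIF3I: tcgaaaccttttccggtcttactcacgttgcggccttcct
EIF4E: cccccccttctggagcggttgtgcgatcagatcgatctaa
EIF4G1: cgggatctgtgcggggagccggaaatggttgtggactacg
EIF4G2: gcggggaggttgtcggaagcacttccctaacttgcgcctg
EIF5: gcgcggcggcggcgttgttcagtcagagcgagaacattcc
They lie at chr1:32222387-32222426 (+), chr4:98929114-98929153 (-), chr3:184314586-184314625 (+), chr11:10807977-10808016 (-) and chr14:103334217-103334256 (+). EIF4G1 has 3 listed starts, and EIF4G2 and EIF5 have 2 each, of which the first listed is shown. A promoter is listed for 43 members, 10 of them with more than 1 start. In the shares that follow, a gene was counted if any of its listed starts matched, so genes with more starts had more chances. A TOP-like start stood in 10 of the 43 (23.3%), in 5.14% of 27305 genes with a listed promoter and in 7.56% of the 9908 of these that were tested. The E-box CACGTG, a palindrome bound by MYC and related factors, stood anywhere in the 300 bases around the start in 11 of the 43 (25.6%), in 8.77% of all genes and in 12.7% of those tested. A match of letters describes the annotated sequence and shows neither the start used in these cells nor a bound factor.

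The largest complex, eIF3, which binds the small subunit and links it to eIF4G, was lower across its subunits in OC. All 14 of its subunit genes fell in OC against DMSO+EV, with a median log2 fold change of -1.02, and 7 of them fell by at least 1. In OC against OL+EV, 13 fell with a median of -0.79, and EIF3B was not called. In OL+EV against DMSO+EV, 8 fell with a median of -0.32 and 6 were not called, but 5 of the 14 were called lower without DMSO+EV replicate 3, OL+EV replicate 1 or OL+EV replicate 3 each, or with no filter. Of all genes tested, 35.8% were called lower in OC against DMSO+EV, 34.8% in OC against OL+EV and 23.5% in OL+EV against DMSO+EV. Summed eIF3 was 509 ± 56.1 FPKM in OC, 849.9 ± 45.6 in OL+EV and 1032 ± 62.3 in DMSO+EV (SD, n = 3).

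EIF3C and EIF3CL, near-identical copies on chromosome 16 at chr16:28688558-28735730 and chr16:28379581-28426418, encode the subunit that contacts eIF1 and eIF5. EIF3C had 15.9, 15.4 and 16.1 FPKM in OC, 33.4, 32.9 and 32.6 in OL+EV, and 47.9, 53.2 and 51.7 in DMSO+EV. EIF3CL had 14.2, 15.2 and 14.2 FPKM in OC, 27.8, 28.8 and 39.2 in OL+EV, and 49.0, 52.4 and 40.5 in DMSO+EV. How reads were divided between the copies is not known, and their sum was 30.3 ± 0.263 FPKM in OC, 64.9 ± 5.99 in OL+EV and 98.2 ± 6.83 in DMSO+EV (SD, n = 3). The groups did not overlap for either copy. For EIF3C the log2 fold change was -1.63 (SE 0.08, adjusted p = 1.05e-09) in OC against DMSO+EV, -0.61 (SE 0.08, adjusted p = 3.61e-05) in OL+EV against DMSO+EV and -1.02 (SE 0.08, adjusted p = 2.99e-07) in OC against OL+EV (limma). For EIF3CL these values were -1.63, -0.56 and -1.07 in the same order, each called.

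EIF3L, a peripheral subunit at chr22:37849419-37889407, separated OC from both other groups. It had 24.1, 25.5 and 27.9 FPKM in OC, 88.6, 80.3 and 76.2 in OL+EV, and 65.9, 88.1 and 79.7 in DMSO+EV. OC lay below both other groups, which overlapped each other. The log2 fold change was -1.62 (SE 0.11, adjusted p = 7.78e-08) in OC against OL+EV and -1.55 (adjusted p = 5.28e-08) in OC against DMSO+EV (limma), and OL+EV against DMSO+EV was not called at 0.08 (adjusted p = 0.602).

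EIF3B, whose protein forms the core of the scanning module with eIF3g and eIF3i, went low in both drug-treated groups. Its levels were 38.1, 37.3 and 43.6 FPKM in OC, 45.7, 47.8 and 45.0 in OL+EV, and 72.5, 81.8 and 82.8 in DMSO+EV. Both treated groups lay below DMSO+EV, with log2 fold changes of -0.98 (adjusted p = 8.01e-07) for OC and -0.76 (adjusted p = 1.92e-05) for OL+EV (limma). OC against OL+EV was not called at -0.22 (adjusted p = 0.0636), although the groups did not overlap, and passed without OC replicate 3, without DMSO+EV replicate 1, under quantile normalization or with totals equal outside mitochondrial genes (adjusted p between 0.00749 and 0.0434).

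EIF3J, a loosely bound subunit that occupies the mRNA channel, was likewise lowest in OC and highest in DMSO+EV. Libraries held 6.06, 6.56 and 6.94 FPKM in OC, 8.67, 9.18 and 8.92 in OL+EV, and 13.3, 13.8 and 16.6 in DMSO+EV. The 3 groups were apart, with log2 fold changes of -1.04 (adjusted p = 5.91e-07) in OC and -0.64 (adjusted p = 0.000111) in OL+EV against DMSO+EV (limma).

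EIF3A, the largest subunit, and EIF3E, a subunit known in mouse as an integration site of mammary tumour virus (Int6), fell in OC against both other groups. EIF3A had 12.2, 12.8 and 11.8 FPKM in OC, 23.8, 22.2 and 19.6 in OL+EV, and 21.5, 25.8 and 29.7 in DMSO+EV. EIF3E had 47.6, 51.1 and 58.9 FPKM in OC, 103, 97.6 and 92.9 in OL+EV, and 112, 105 and 128 in DMSO+EV. OC was the lowest group for both, with log2 fold changes against DMSO+EV of -1.0 (adjusted p = 4.2e-06) for EIF3A and -1.11 (adjusted p = 7.68e-07) for EIF3E (limma). OL+EV against DMSO+EV was not called, at -0.21 (adjusted p = 0.137) for EIF3A and -0.23 (adjusted p = 0.0949) for EIF3E. EIF3A passed without DMSO+EV replicate 1 or under median-of-ratios rescaling (adjusted p between 0.0194 and 0.0409), and EIF3E passed without OC replicate 3 or under median-of-ratios rescaling (adjusted p between 0.0271 and 0.0369).

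The remaining subunits (EIF3D, EIF3F, EIF3G, EIF3H, EIF3I, EIF3K and EIF3M) fell in OC against DMSO+EV, with log2 fold changes between -0.36 for EIF3G and -1.44 for EIF3I. EIF3F and EIF3H stood slightly above DMSO+EV in OL+EV, at 0.22 (adjusted p = 0.113) and 0.21 (adjusted p = 0.0965), and were not called. EIF3H passed without OC replicate 3, without DMSO+EV replicate 3, under quantile normalization or with totals equal outside mitochondrial genes (adjusted p between 0.0174 and 0.0474). EIF3F passed with totals equal outside mitochondrial genes (adjusted p = 0.0368). EIF3I, a ring-shaped WD-repeat subunit, averaged 42.4 ± 3.28 FPKM in OC, 76.3 ± 7.34 in OL+EV and 116 ± 4.67 in DMSO+EV (SD, n = 3). In OL+EV against DMSO+EV, the calls of EIF3D, EIF3K and EIF3M were each lost without single libraries. That of EIF3D was lost without OL+EV replicate 1, 2 or 3, without DMSO+EV replicate 2 or 3 or with no filter (adjusted p between 0.0544 and 0.154). That of EIF3K was lost without OL+EV replicate 1, 2 or 3, without DMSO+EV replicate 2 or 3 or with no filter (adjusted p between 0.0502 and 0.126), and that of EIF3M without OL+EV replicate 1 or 3, without DMSO+EV replicate 1 or 3 or with no filter (adjusted p between 0.0785 and 0.158). EIF3M in OC against OL+EV was lost without OC replicate 1 or 2, without OL+EV replicate 1 or 2, under median-of-ratios rescaling or with no filter (adjusted p between 0.0652 and 0.158). In that comparison EIF3G was not called under median-of-ratios rescaling (adjusted p = 0.107). A pseudogene row of EIF3F, EIF3FP3, averaged 8.05 FPKM over the 9 libraries and may share reads with its parent.

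The eIF2 trimer did not move as 1 unit. EIF2S1, EIF2S2 and EIF2S3 encode its alpha, beta and gamma subunits, of which alpha is the one phosphorylated under stress and gamma binds GTP and the initiator tRNA. EIF2S2 had 49.3, 53.7 and 62.4 FPKM in OC, 28.3, 26.5 and 24.6 in OL+EV, and 37.8, 40.6 and 47.4 in DMSO+EV. OC was the highest group and OL+EV the lowest, with no overlap among the 3. The log2 fold change was 0.39 (SE 0.11, adjusted p = 0.00803) in OC and -0.64 (SE 0.11, adjusted p = 0.000356) in OL+EV against DMSO+EV, and 1.03 (SE 0.11, adjusted p = 5.5e-06) in OC against OL+EV (limma), where EIF2S2 alone among the members rose by at least 1. A pseudogene row, EIF2S2P4, averaged 5.3 FPKM and may share reads with EIF2S2.

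EIF2S3 was lowest in OC, with 34.0, 35.4 and 35.2 FPKM in OC, 64.0, 61.1 and 56.9 in OL+EV, and 63.8, 62.5 and 78.2 in DMSO+EV. OC lay below both other groups, which overlapped. It changed by -0.94 (SE 0.10, adjusted p = 2.2e-06) in OC against DMSO+EV and -0.78 (SE 0.10, adjusted p = 2.34e-05) in OC against OL+EV (limma), whereas OL+EV against DMSO+EV gave -0.16 (adjusted p = 0.199). Its retrogene copy EIF2S3B stayed at 2.80 FPKM or below in each library and may take reads from it.

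EIF2S1 was low in both treated groups, with 7.88, 8.25 and 9.83 FPKM in OC, 8.30, 7.28 and 7.60 in OL+EV, and 13.2, 13.4 and 16.2 in DMSO+EV. OC and OL+EV overlapped below DMSO+EV. EIF2S1 changed by -0.66 (adjusted p = 0.000101) in OC and -0.81 (adjusted p = 3.59e-05) in OL+EV against DMSO+EV, and 0.14 (adjusted p = 0.272) in OC against OL+EV, which passed under median-of-ratios rescaling (adjusted p = 0.0458). Summed over the trimer, the level was 98.6 ± 8.21 FPKM in OC, 94.9 ± 5.81 in OL+EV and 124 ± 15.1 in DMSO+EV (SD, n = 3).

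EIF2A and EIF2D, which can deliver tRNA to the ribosome without eIF2, averaged 11.6 ± 1.45 FPKM in OC, 20.2 ± 3.04 in OL+EV and 17.8 ± 3.16 in DMSO+EV for EIF2A and 17.4 ± 1.21 FPKM in OC, 29.7 ± 1.23 in OL+EV and 24.8 ± 0.340 in DMSO+EV for EIF2D (SD, n = 3). Both fell in OC, with log2 fold changes of -0.58 for EIF2A and -0.49 for EIF2D against DMSO+EV, and -0.75 for EIF2A and -0.74 for EIF2D against OL+EV. EIF2D rose in OL+EV against DMSO+EV by 0.25 (adjusted p = 0.0246), a call lost without OL+EV replicate 1 or 2, without DMSO+EV replicate 2 or under median-of-ratios rescaling (adjusted p between 0.0541 and 0.137). Of the 6 members of this role, 5 fell and 1 rose in OC against DMSO+EV, 2 fell and 1 rose in OL+EV against DMSO+EV, and 4 fell and 1 rose in OC against OL+EV. Shares over all genes tested were 35.8% lower and 33.1% higher, 23.5% and 29%, and 34.8% and 25.9%, in that order.

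The 5 subunits of eIF2B, the exchange factor that phosphorylated eIF2 inhibits, fell in OC against DMSO+EV. EIF2B3, the gamma subunit of the catalytic arm, had 2.03, 1.96 and 2.06 FPKM in OC, 3.81, 3.06 and 2.75 in OL+EV, and 6.41, 6.32 and 6.76 in DMSO+EV. EIF2B2, the beta subunit of the regulatory core, had 6.75, 6.75 and 8.57 FPKM in OC, 8.07, 7.75 and 8.47 in OL+EV, and 15.2, 18.3 and 19.5 in DMSO+EV. For both genes each treated library lay below the DMSO+EV libraries. Log2 fold changes of EIF2B3 were -1.31 (SE 0.10, adjusted p = 1.04e-07) in OC and -0.84 (SE 0.10, adjusted p = 1.71e-05) in OL+EV against DMSO+EV, and -0.47 (SE 0.10, adjusted p = 0.00158) in OC against OL+EV (limma). EIF2B2 changed by -1.16 (adjusted p = 8.38e-07) and -1.03 (adjusted p = 6e-06) in the first 2 comparisons, and OC against OL+EV was not called at -0.13 (adjusted p = 0.343).

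EIF2B4, the delta subunit, was lowest in OC, with 8.43, 7.92 and 10.3 FPKM in OC, 13.7, 12.8 and 13.0 in OL+EV, and 12.6, 10.9 and 10.6 in DMSO+EV. OL+EV lay above both other groups, and its difference from DMSO+EV was not called at 0.20 (adjusted p = 0.131). The log2 fold change was -0.53 (adjusted p = 0.000768) in OC against OL+EV and -0.33 (adjusted p = 0.0131) in OC against DMSO+EV, the last being lost without OC replicate 2 or without DMSO+EV replicate 1 (adjusted p between 0.0521 and 0.0685). EIF2B5, the catalytic epsilon subunit, had 10.8, 10.5 and 9.07 FPKM in OC, 13.4, 12.7 and 12.7 in OL+EV, and 14.5, 16.4 and 16.2 in DMSO+EV. Its log2 fold change was -0.59 in OC and -0.26 in OL+EV against DMSO+EV. The OL+EV call of EIF2B5 was lost without OL+EV replicate 1, 2 or 3, without DMSO+EV replicate 2 or 3, with totals equal outside mitochondrial genes or with no filter (adjusted p between 0.0516 and 0.095), and its call in OC against OL+EV, -0.33 (adjusted p = 0.00733), was lost under median-of-ratios rescaling (adjusted p = 0.0753). EIF2B1, the alpha subunit, changed by -0.28 (adjusted p = 0.0175) in OC against DMSO+EV, a call lost without OC replicate 1 or 2 (adjusted p between 0.0509 and 0.0991). Counted together, 5 of 5 fell in OC against DMSO+EV (3 of 5 without OC replicate 2), 3 in OL+EV against DMSO+EV and 3 in OC against OL+EV. Of all genes tested, 35.8%, 23.5% and 34.8% were called lower in that order.

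Among the proteins that act at the cap, the mRNA of the inhibitor 4E-BP1 had the largest fall of the 48 members tested in OC against DMSO+EV. EIF4EBP1, which encodes it, had 14.6, 16.3 and 18.4 FPKM in OC, 30.2, 36.7 and 31.1 in OL+EV, and 61.8, 64.5 and 58.0 in DMSO+EV. The 3 groups were apart. Its log2 fold change was -1.84 (SE 0.11, adjusted p = 4.3e-09) in OC and -0.89 (SE 0.11, adjusted p = 1.26e-05) in OL+EV against DMSO+EV, and -0.95 (SE 0.11, adjusted p = 6.54e-06) in OC against OL+EV (limma). EIF4EBP2, whose product binds eIF4E in the same way, had 16.5, 17.5 and 13.9 FPKM in OC, 12.2, 12.2 and 11.0 in OL+EV, and 10.9, 11.3 and 13.1 in DMSO+EV. OC lay above both other groups, which overlapped. EIF4EBP2 changed by 0.41 (adjusted p = 0.00352) in OC against DMSO+EV and 0.40 (adjusted p = 0.00498) in OC against OL+EV, and by 0.01 (adjusted p = 0.961) in OL+EV against DMSO+EV.

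EIF4E, the cap-binding protein that the 4E-BPs hold, had 4.68, 4.86 and 5.23 FPKM in OC, 4.17, 4.03 and 3.35 in OL+EV, and 5.91, 6.55 and 9.80 in DMSO+EV. OL+EV was the lowest group and DMSO+EV the highest, with DMSO+EV replicate 3 above the other two of its group. A pseudogene row, EIF4EP2, averaged 2.22 FPKM over the 9 libraries and may share reads with EIF4E, which bears on its ratios as well. EIF4E changed by -0.48 (SE 0.14, adjusted p = 0.00936) in OC and -0.77 (SE 0.14, adjusted p = 0.000561) in OL+EV against DMSO+EV (limma). The OC value was not called with no filter (adjusted p = 0.0514), and OC against OL+EV was not called at 0.29 (adjusted p = 0.0972) but passed without DMSO+EV replicate 3 (adjusted p = 0.0196), under median-of-ratios rescaling (adjusted p = 0.0236) and in a fit of these 2 groups alone (adjusted p = 0.0234). EIF4E2, a homologue that takes part in silencing of bound mRNAs, had 32.0, 34.0 and 41.9 FPKM in OC, 41.4, 42.2 and 38.5 in OL+EV, and 46.2, 42.6 and 45.0 in DMSO+EV. OC and OL+EV overlapped, and both lay below DMSO+EV. OC against OL+EV, -0.18 (adjusted p = 0.146), passed without OC replicate 3 (adjusted p = 0.00732). Its change of -0.31 (adjusted p = 0.017) in OC against DMSO+EV was lost without OC replicate 1 or 2 (adjusted p between 0.0643 and 0.0877). EIF4E3 stayed at 0.219 FPKM or below, EIF4EBP3 at 0.668 or below and EIF4E1B at 0.0212 or below in each library.

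Ratios within a library do not depend on its scaling. EIF4EBP2 stood to EIF4EBP1 at 1.13, 1.08 and 0.754 in OC, 0.406, 0.332 and 0.354 in OL+EV, and 0.177, 0.176 and 0.225 in DMSO+EV. EIF4EBP1 stood to EIF4E at 3.13, 3.35 and 3.52 in OC, 7.24, 9.11 and 9.30 in OL+EV, and 10.4, 9.85 and 5.92 in DMSO+EV. The first ratio had no overlap between groups, while the second was low in OC and overlapped between OL+EV and DMSO+EV. With 3 libraries against 3, an exact two-sided permutation test cannot go below p = 0.1, the value that the ratio of EIF4EBP2 to EIF4EBP1 gave in each comparison (0.138 after Benjamini-Hochberg adjustment over the 33 tests of 11 ratios). Most of the 33 tests gave that same p, so separation of groups was the usual outcome.

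EIF4A1 and EIF4A2 encode closely related forms of the helicase that unwinds 5′ leaders, and moved in opposite directions against DMSO+EV. EIF4A1 had 185, 185 and 221 FPKM in OC, 276, 273 and 247 in OL+EV, and 361, 419.6 and 415 in DMSO+EV. EIF4A2 had 139, 139 and 171 FPKM in OC, 141, 143 and 137 in OL+EV, and 108, 88.3 and 101 in DMSO+EV. The 3 groups were apart for EIF4A1, while for EIF4A2 OC and OL+EV overlapped above DMSO+EV. EIF4A1 changed by -1.01 (SE 0.11, adjusted p = 2.61e-06) in OC and -0.58 (SE 0.11, adjusted p = 0.000643) in OL+EV against DMSO+EV and by -0.43 (adjusted p = 0.00462) in OC against OL+EV (limma). EIF4A2 changed by 0.59 (SE 0.11, adjusted p = 0.000358) and 0.50 (SE 0.11, adjusted p = 0.0019) in the first 2 comparisons and by 0.08 (adjusted p = 0.529) in the last (limma). The ratio of EIF4A2 to EIF4A1 was 0.748, 0.750 and 0.775 in OC, 0.508, 0.526 and 0.554 in OL+EV, and 0.299, 0.211 and 0.242 in DMSO+EV. Each group was apart from the others, at the smallest exact permutation p of 0.1, which most of the 33 ratio tests gave. Introns of EIF4A1 hold 3 small nucleolar RNA genes and those of EIF4A2 hold 5, and a pseudogene row, EIF4A1P10, averaged 8.20 FPKM, so both levels are uncertain to the extent that reads were shared.

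**Figure D2:**
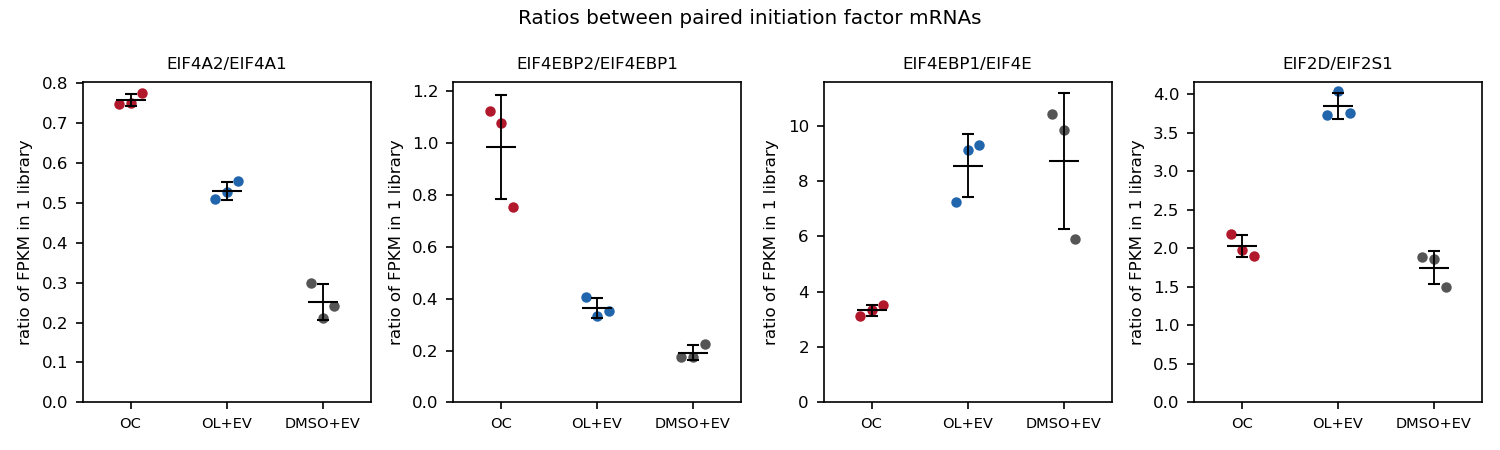
Ratios of FPKM between 2 members within a library, for the libraries of OC, OL+EV and DMSO+EV, with points for libraries and bars for mean ± SD (n = 3). The ratio of EIF4A2 to EIF4A1 lies between 0.748 and 0.775 in OC, between 0.508 and 0.554 in OL+EV and between 0.211 and 0.299 in DMSO+EV.

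EIF4B, an activator of the helicase and a target of S6 kinase, had 35.2, 37.9 and 39.9 FPKM in OC, 95.8, 90.6 and 82.0 in OL+EV, and 61.8, 73.5 and 84.5 in DMSO+EV. OC lay below both other groups. The log2 fold change was -1.22 (SE 0.12, adjusted p = 1.5e-06) in OC against OL+EV and -0.93 (SE 0.12, adjusted p = 9.25e-06) in OC against DMSO+EV (limma). OL+EV and DMSO+EV overlapped, and the call of 0.29 (adjusted p = 0.0492) between them was lost without OC replicate 1 or 2, without OL+EV replicate 1 or 2, without DMSO+EV replicate 1 or 2, without a variance trend, under median-of-ratios rescaling, with no filter, with a pseudocount of 0.1 or in a fit of these 2 groups alone (adjusted p between 0.0509 and 0.184). EIF4H, a cofactor related to EIF4B, fell in OC against DMSO+EV, at -0.50 (adjusted p = 0.00092). Its call of -0.27 (adjusted p = 0.0457) in OC against OL+EV was lost without OC replicate 1 or 2, without OL+EV replicate 1 or 2, without DMSO+EV replicate 2, under median-of-ratios rescaling or with no filter (adjusted p between 0.0593 and 0.339). A pseudogene row, EIF4HP1, averaged 13.4 FPKM. EIF4A3, the helicase of the exon junction complex, which acts after splicing rather than in eIF4F, changed by -0.43 (adjusted p = 0.00297) in OC and -0.30 (adjusted p = 0.0322) in OL+EV against DMSO+EV. The OL+EV call was lost without OL+EV replicate 1 or 3, without DMSO+EV replicate 2 or 3 or with no filter (adjusted p between 0.0575 and 0.136). Of the 5 helicases and cofactors, 4 fell and 1 rose in OC against DMSO+EV, 2 fell and 2 rose in OL+EV against DMSO+EV, and 3 fell in OC against OL+EV. Shares over all genes tested were 35.8% lower and 33.1% higher, 23.5% and 29%, and 34.8% and 25.9%, in that order.

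Of the 3 eIF4G scaffolds, none was called in OC against DMSO+EV over all libraries. Of all genes tested, 69% were called in that comparison. EIF4G1, the main scaffold, had 120.2, 117 and 115 FPKM in OC, 102, 97.1 and 90.2 in OL+EV, and 106, 135 and 142 in DMSO+EV. EIF4G2, a homologue (also DAP5) that does not bind eIF4E, had 125, 129.8 and 121 FPKM in OC, 100.2, 91.3 and 85.2 in OL+EV, and 96.6, 121 and 145 in DMSO+EV. In both, OL+EV was the lowest group by its mean, and DMSO+EV was widely spread, with replicate 1 the lowest of its group. For EIF4G2 the OL+EV and DMSO+EV libraries overlapped. OL+EV against DMSO+EV gave -0.39 (adjusted p = 0.0104) for EIF4G1 and -0.37 (adjusted p = 0.03) for EIF4G2 (limma), and OC against OL+EV gave 0.28 (adjusted p = 0.0458) and 0.44 (adjusted p = 0.0107). EIF4G1 in OC against DMSO+EV was -0.11 (adjusted p = 0.394) and passed without DMSO+EV replicate 1 (adjusted p = 0.0485). The OL+EV call of EIF4G2 was lost without OL+EV replicate 2 or 3, without DMSO+EV replicate 2 or 3, under quantile normalization or with no filter (adjusted p between 0.0767 and 0.14). The call of EIF4G1 in OC against OL+EV was lost without OC replicate 1 or 2, without OL+EV replicate 1, 2 or 3, without DMSO+EV replicate 2, under quantile normalization or with no filter (adjusted p between 0.0574 and 0.152). EIF4G3, the third scaffold, averaged 11.5 ± 1.24 FPKM in OC, 13.4 ± 0.953 in OL+EV and 10.3 ± 0.943 in DMSO+EV (SD, n = 3) and rose in OL+EV against DMSO+EV by 0.34 (adjusted p = 0.0127), a call lost without OL+EV replicate 1 (adjusted p = 0.0596).

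EIF5A, which encodes the hypusine-bearing factor that helps ribosomes through difficult peptide bonds and in termination, had the highest level of the members in DMSO+EV and a large fall. It lies at chr17:7306999-7312463 and had 138, 142 and 167 FPKM in OC, 217, 229 and 203 in OL+EV, and 496, 525 and 480.2 in DMSO+EV. The groups were apart. Its log2 fold change was -1.75 (SE 0.11, adjusted p = 7.38e-09) in OC and -1.21 (SE 0.11, adjusted p = 7.67e-07) in OL+EV against DMSO+EV, and -0.54 (SE 0.11, adjusted p = 0.000713) in OC against OL+EV (limma). The copy EIF5AL1, at 4.61 FPKM or below in each library, moved the same way in the fit, by -1.21, -0.84 and -0.38 in the same order, and shares sequence with EIF5A. Its call in OC against OL+EV was lost without OC replicate 1 or 2, without OL+EV replicate 2, under median-of-ratios rescaling, under quantile normalization or with no filter (adjusted p between 0.0575 and 0.0868). EIF5A2, a second hypusinated form, averaged 0.482 ± 0.0682 FPKM in OC, 0.617 ± 0.146 in OL+EV and 1.33 ± 0.269 in DMSO+EV (SD, n = 3), far below EIF5A in each group. EIF5A2 passed the filter through DMSO+EV alone, so its falls against that group were favoured in advance.

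EIF5B, the GTPase that joins the large subunit, had 13.0, 13.6 and 16.2 FPKM in OC, 15.5, 16.1 and 14.6 in OL+EV, and 18.1, 20.1 and 24.8 in DMSO+EV. DMSO+EV lay above both other groups, which overlapped. EIF5B changed by -0.52 (adjusted p = 0.00137) in OC and -0.42 (adjusted p = 0.00914) in OL+EV against DMSO+EV (limma). EIF5, the GTPase-activating protein of eIF2, had 41.5, 43.8 and 44.4 FPKM in OC, 34.6, 31.1 and 30.9 in OL+EV, and 34.1, 37.6 and 46.1 in DMSO+EV. OC lay above OL+EV, with a limma log2 fold change of 0.41 (adjusted p = 0.00527), and neither was called against DMSO+EV, at 0.15 (adjusted p = 0.248) for OC and -0.27 (adjusted p = 0.0551) for OL+EV. The OC value passed without DMSO+EV replicate 3 (adjusted p = 0.0276), and the OL+EV value without OC replicate 3, without DMSO+EV replicate 1, under median-of-ratios rescaling, under quantile normalization or with a filter at 5 FPKM (adjusted p between 0.013 and 0.0496). EIF6, which keeps large subunits from joining too early, had 78.9, 73.7 and 83.9 FPKM in OC, 87.0, 83.4 and 76.3 in OL+EV, and 95.9, 112 and 99.2 in DMSO+EV. Both treated groups lay below DMSO+EV, at -0.37 (adjusted p = 0.0045) for OC and -0.31 (adjusted p = 0.0175) for OL+EV, where the OL+EV call was lost without OL+EV replicate 3 or without DMSO+EV replicate 2 (adjusted p between 0.0811 and 0.085). Of the 6 members of this role, 5 fell in OC and 5 in OL+EV against DMSO+EV, EIF5A2 among them in both. In OC against OL+EV, 2 fell and 1 rose. Over all genes tested, 35.8% were called lower in OC and 23.5% in OL+EV against DMSO+EV. The shares in OC against OL+EV were 34.8% lower and 25.9% higher.

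The 4 factors of start-site scanning differed among themselves: 3 fell in OC against DMSO+EV, 1 fell and 2 rose in OL+EV against DMSO+EV, and 2 fell in OC against OL+EV. Shares over all genes tested were 35.8% lower and 33.1% higher, 23.5% and 29%, and 34.8% and 25.9%, in that order. EIF1AX, which encodes the eIF1A protein of the scanning ribosome, had 4.77, 4.94 and 5.67 FPKM in OC, 5.47, 4.48 and 4.57 in OL+EV, and 9.52, 10.0 and 13.6 in DMSO+EV. Both treated groups lay below DMSO+EV and overlapped each other. A pseudogene row, EIF1AXP1, averaged 1.49 FPKM and may share reads with EIF1AX. EIF1AX changed by -0.96 (SE 0.13, adjusted p = 1.49e-05) in OC and -1.03 (SE 0.13, adjusted p = 1.64e-05) in OL+EV against DMSO+EV (limma). EIF1, which guards start codon choice, had 41.7, 42.6 and 52.5 FPKM in OC, 71.0, 70.4 and 61.1 in OL+EV, and 54.1, 55.2 and 57.7 in DMSO+EV. OC was the lowest group and OL+EV the highest, with no overlap. EIF1 fell in OC against OL+EV, at -0.56 (adjusted p = 0.000525). Its call of -0.29 (adjusted p = 0.0272) in OC against DMSO+EV was lost without OC replicate 1 or 2, without DMSO+EV replicate 2 or 3, under median-of-ratios rescaling or with no filter (adjusted p between 0.0585 and 0.111), and that of 0.27 (adjusted p = 0.0459) in OL+EV against DMSO+EV was lost without OC replicate 2, without OL+EV replicate 1 or 2, without DMSO+EV replicate 1, 2 or 3, under median-of-ratios rescaling or with no filter (adjusted p between 0.0558 and 0.176).

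EIF1B, a close paralogue of EIF1, had 10.8, 11.96 and 13.8 FPKM in OC, 14.9, 15.8 and 14.8 in OL+EV, and 11.3, 11.7 and 12.8 in DMSO+EV. OL+EV lay above both other groups, which overlapped. EIF1B rose in OL+EV against DMSO+EV by 0.33 (adjusted p = 0.0139), a call lost without OL+EV replicate 2 or under median-of-ratios rescaling (adjusted p between 0.0579 and 0.0583), and fell in OC against OL+EV, at -0.30 (adjusted p = 0.0173), a call lost without OC replicate 1 or 2, without OL+EV replicate 2 or under median-of-ratios rescaling (adjusted p between 0.0509 and 0.157). EIF1AD, a relative of eIF1A, had 10.2, 10.9 and 10.2 FPKM in OC, 11.9, 12.7 and 11.8 in OL+EV, and 12.2, 12.8 and 14.02 in DMSO+EV. It fell in OC against DMSO+EV, at -0.29 (adjusted p = 0.00796), and OC against OL+EV was not called at -0.20 (adjusted p = 0.0589) but passed without DMSO+EV replicate 1 or 3, under quantile normalization or in a fit of these 2 groups alone (adjusted p between 0.0196 and 0.0457).

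**Figure D3:**
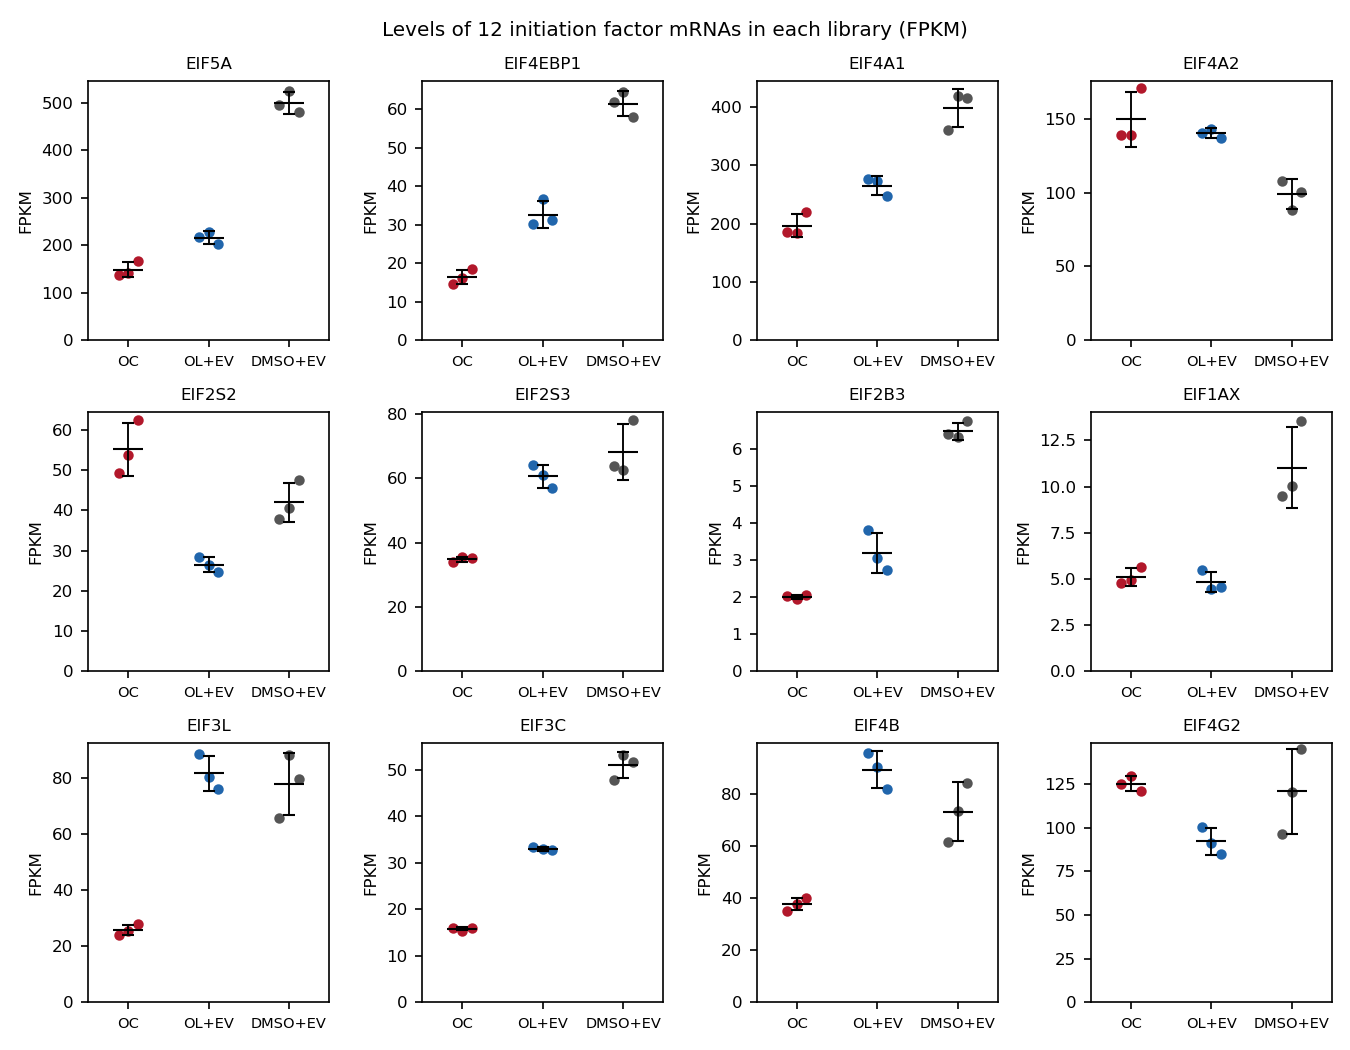
FPKM of 12 members in each library of OC, OL+EV and DMSO+EV, with points for libraries and bars for mean ± SD (n = 3). EIF5A falls to a mean of 149 FPKM in OC and 216 in OL+EV, against 501 in DMSO+EV, whereas EIF2S2 is highest in OC and EIF4A2 is higher in OC and OL+EV than in DMSO+EV.

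Members with a TOP-like start, whose windows are shown above, were lower in OC than in OL+EV with 1 exception. Of the 10, 9 were called lower, none was called higher, and the median log2 fold change was -0.74. EIF2S3 and its copy EIF2S3B, which may share reads, are both among the 9. The exception was EIF4A2, at 0.08. Of the 30 tested members without such a start, 12 were called lower and 4 higher, with a median of -0.19. Among the tested genes with a listed promoter, 41.5% of the 749 with such a start were called lower with a median of -0.15, and 32.2% of the 9159 without it with a median of -0.04. The members with the start range from -1.22 for EIF4B to 0.08, those without from -1.02 for EIF3C to 0.44 for EIF4G2, so the ranges overlap. Under median-of-ratios rescaling, 8 of 10 with the start and 8 of 30 without it were called lower, with medians of -0.61 and -0.07. Each of 9 settings that left out 1 library gave 8 or 9 of 10 lower with the start. The 8 members with no listed start are in neither set. Of these, EIF2S2 was called higher in OC against OL+EV, at 1.03. The others were all called lower there, from -0.37 for EIF3G to -1.62 for EIF3L. The number of genes is small and they share complexes, and the difference by start type was not tested.

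In OL+EV against DMSO+EV the 10 members with the start divided into 3 higher and 3 lower, with a median of 0.05, and the 30 without it into 3 higher and 19 lower, with a median of -0.38. Without DMSO+EV replicate 3, OL+EV replicate 1 or OL+EV replicate 3 each, or with no filter, 0 of the 10 were called lower, and without DMSO+EV replicate 2 or OL+EV replicate 2 each, 1 was lower and 1 higher. Without DMSO+EV replicate 1, 2 were lower and 2 higher and the median was -0.03. In OC against DMSO+EV, 9 of 10 with the start and 23 of 30 without it were called lower, with medians of -0.68 and -0.49. Of the tested genes with a listed promoter, 37.7% with the start and 34.2% without it were called lower there. In OL+EV against DMSO+EV these shares were 19.9% and 24.8%, with 31.1% and 29.2% called higher. No start was listed for 8 members: EIF2S2, EIF3A, EIF3CL, EIF3E, EIF3G, EIF3H, EIF3L and EIF4EBP1.

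**Figure D4:**
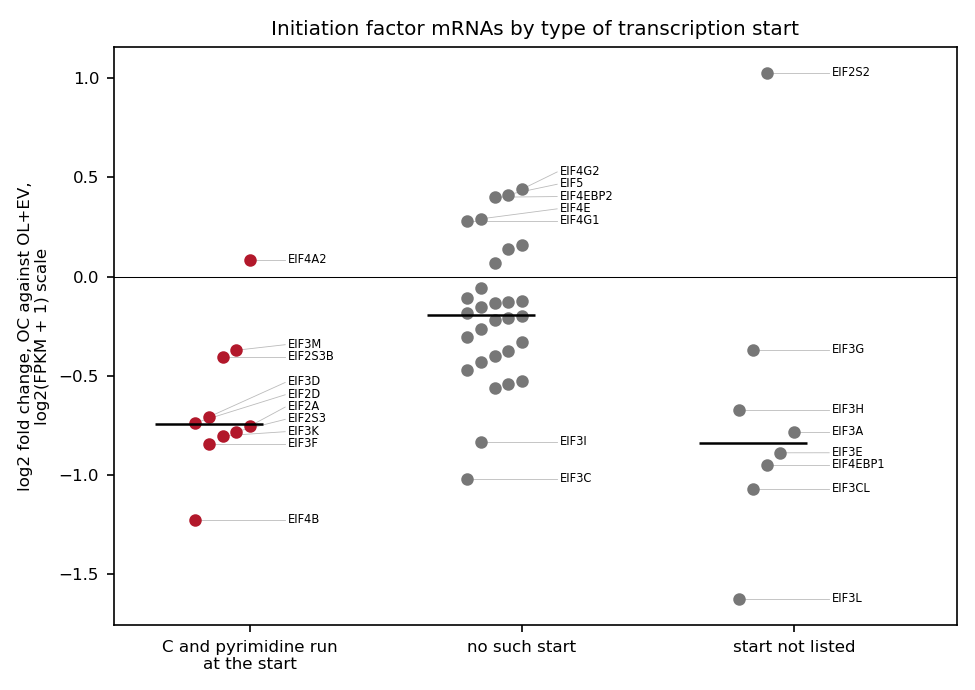
Log2 fold changes in OC against OL+EV of the 48 tested members, on the log2(FPKM + 1) scale, by whether the annotated transcript starts with C and a pyrimidine run, does not, or is not listed, with lines at the medians. The 10 with the start have a median of -0.74 and the 30 without it of -0.19.

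Genes around the initiation factors were read from 7 lists. Over all genes tested, 33.1% were called higher and 35.8% lower in OC against DMSO+EV, 29% higher and 23.5% lower in OL+EV against DMSO+EV, and 25.9% higher and 34.8% lower in OC against OL+EV. The elongation list held 6 cytosolic elongation factors and the kinase EEF2K, set apart here after its values were seen. All 6 factors fell in OC, with a median log2 fold change of -1.13 against DMSO+EV and -1.22 against OL+EV. In OL+EV against DMSO+EV, EEF2 rose and EEF1B2 fell, and the median of the 6 was -0.12. EEF1B2, an exchange factor of eEF1A, averaged 23.4 ± 4.99 FPKM in OC, 84.5 ± 3.95 in OL+EV and 133 ± 12.4 in DMSO+EV, and EEF2, the translocase, averaged 185 ± 9.28 FPKM in OC, 608 ± 48.5 in OL+EV and 481 ± 68.8 in DMSO+EV (SD, n = 3). EEF1G, another subunit of the exchange complex, averaged 292 FPKM in OC, 706 in OL+EV and 741 in DMSO+EV. EEF2K, the kinase that inactivates eEF2, averaged 2.105 FPKM in OC, 3.78 in OL+EV and 2.74 in DMSO+EV. The call of EEF2 in OL+EV against DMSO+EV, 0.34 (adjusted p = 0.0309), was lost without OL+EV replicate 1 or 2, without DMSO+EV replicate 1, under median-of-ratios rescaling or with no filter (adjusted p between 0.075 and 0.123). EEF2K changed by -0.27 (adjusted p = 0.034) in OC and 0.36 (adjusted p = 0.011) in OL+EV against DMSO+EV (limma). The call of EEF2K in OC against DMSO+EV was lost without OC replicate 3, without DMSO+EV replicate 3, under median-of-ratios rescaling, under quantile normalization, with totals equal outside mitochondrial genes, with no filter or in a fit of these 2 groups alone (adjusted p between 0.0515 and 0.114). Annotated TOP-like starts stood in EEF1A1, EEF1B2, EEF2 and RPS6 of these lists, and each of these 4 fell in OC against OL+EV, with a median of -1.64.

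Of the 7 kinases, phosphatase subunits and regulators of eIF2 alpha, 2 rose and 2 fell in OC against DMSO+EV and in OC against OL+EV, and 2 rose in OL+EV against DMSO+EV. In both OC comparisons 28.6% of the list was called each way, near the shares over all genes or below them. One of the 2 falls was that of EIF2AK4, the kinase GCN2, which was lost without OC replicate 3, without DMSO+EV replicate 2 or 3, with totals equal outside mitochondrial genes or with no filter (adjusted p between 0.0602 and 0.114) against DMSO+EV and without OC replicate 3, without OL+EV replicate 1, under median-of-ratios rescaling or with no filter (adjusted p between 0.0663 and 0.0735) against OL+EV. The list's median log2 fold changes were -0.02 in OC and 0.10 in OL+EV against DMSO+EV, and -0.15 in OC against OL+EV. EIF2AK2, the kinase PKR, which is activated by double-stranded RNA and induced by interferon, had 36.1, 39.2 and 28.8 FPKM in OC, 4.56, 4.99 and 4.71 in OL+EV, and 4.82, 4.56 and 5.91 in DMSO+EV. OC lay far above both other groups, which overlapped. Its log2 fold change was 2.54 (SE 0.12, adjusted p = 5.56e-10) in OC against DMSO+EV and 2.62 (SE 0.12, adjusted p = 8.24e-10) in OC against OL+EV (limma). EIF2AK3, the kinase PERK of the endoplasmic reticulum, had 5.38, 5.32 and 4.99 FPKM in OC, 2.68, 2.64 and 2.88 in OL+EV, and 1.92, 1.97 and 2.17 in DMSO+EV, with the 3 groups apart. PPP1R15A, the stress-induced phosphatase subunit GADD34, had 26.7, 29.0 and 31.1 FPKM in OC, 54.7, 51.8 and 53.4 in OL+EV, and 42.9, 37.8 and 36.4 in DMSO+EV. PPP1R15A was highest in OL+EV and lowest in OC, changing by -0.42 (adjusted p = 0.00145) in OC and 0.44 (adjusted p = 0.00149) in OL+EV against DMSO+EV (limma). Phosphorylation of eIF2 was not measured.

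Of 13 tested accessory and poly(A)-binding factors (14 listed), 4 rose and 6 fell in OC against DMSO+EV, 2 rose and 4 fell in OL+EV against DMSO+EV, and 3 rose and 4 fell in OC against OL+EV, with medians of -0.22, -0.16 and -0.05 in that order. Median-of-ratios rescaling gave 5 higher in OC against OL+EV. PDCD4, an inhibitor of eIF4A that growth signalling marks for destruction, had 21.0, 20.9 and 23.0 FPKM in OC, 12.5, 10.9 and 11.8 in OL+EV, and 5.80, 6.58 and 8.17 in DMSO+EV. The 3 groups were apart, with log2 fold changes of 1.54 (SE 0.11, adjusted p = 4.26e-08) in OC and 0.71 (SE 0.11, adjusted p = 0.000139) in OL+EV against DMSO+EV (limma). PABPC4 and PABPC1, poly(A)-binding proteins, averaged 28.0 FPKM in OC, 73.7 in OL+EV and 79.9 in DMSO+EV for PABPC4 and 284 FPKM in OC, 547 in OL+EV and 476 in DMSO+EV for PABPC1. BZW1 and BZW2, mimics of eIF5, fell in both treated groups against DMSO+EV, with log2 fold changes of -0.69 in OC and -0.88 in OL+EV for BZW1, and -1.60 in OC and -0.61 in OL+EV for BZW2.

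Of 13 genes of mTORC1, S6 kinase and MNK signalling, 4 rose and 5 fell in OC against DMSO+EV, 4 rose and 2 fell in OL+EV against DMSO+EV, and 3 rose and 5 fell in OC against OL+EV, with medians of -0.04, -0.04 and -0.27 in that order. In OC against DMSO+EV this was 30.8% higher and 38.5% lower, near the shares over all genes. DEPTOR is among those called higher in OC against both other groups. It had 1.68, 1.62 and 2.11 FPKM in OC and under 1 FPKM in each other library. It thus passed the filter only through the group where it was high, and its calls are no support. The 3 called higher in OC against OL+EV were 1 without OC replicate 1 or 2, without OL+EV replicate 2, under the replicate block or with no filter. There the calls of RPS6KB1, an S6 kinase, and MKNK2, an eIF4E kinase, were both lost, which left DEPTOR. The filter at 5 FPKM left 1 as well, since DEPTOR and RPS6KB1 were then not tested. The 2 called lower in OL+EV against DMSO+EV were 4 without OC replicate 3 or with the compared groups fitted alone. RPS6, the ribosomal substrate of S6 kinase, averaged 147 ± 26.3 FPKM in OC, 432 ± 14.4 in OL+EV and 495 ± 12.8 in DMSO+EV (SD, n = 3). AKT1S1, an inhibitory mTORC1 subunit, averaged 32.2 FPKM in OC, 50.5 in OL+EV and 65.5 in DMSO+EV, and RPS6KB2, an S6 kinase, averaged 19.1 FPKM in OC, 27.6 in OL+EV and 33.1 in DMSO+EV. RHEB, the GTPase that activates mTORC1, fell in both, at -0.67 in OC and -0.73 in OL+EV against DMSO+EV. TSC1 and TSC2, which restrain RHEB, rose in OL+EV against DMSO+EV, by 0.65 for TSC1 and 0.67 for TSC2. Against OL+EV both fell in OC, at -0.48 for TSC1 and -0.34 for TSC2, where the call of TSC2 was lost under median-of-ratios rescaling (adjusted p = 0.0975).

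Termination, recycling and rescue factors gave 3 of 7 lower in OC against DMSO+EV, 4 in OL+EV against DMSO+EV, 2 in OC against OL+EV and none higher, with medians of -0.40, -0.33 and -0.13 in that order. In OC against OL+EV, 1 was called higher without DMSO+EV replicate 1 or 3 or with the compared groups fitted alone, and 2 under median-of-ratios rescaling. In OC against DMSO+EV, 1 was called higher without DMSO+EV replicate 3, and in OL+EV against DMSO+EV the 4 lower were 2 with no filter. ABCE1, which splits ribosomes after termination, averaged 1.15 ± 0.207 FPKM in OC, 2.03 ± 0.187 in OL+EV and 7.98 ± 1.69 in DMSO+EV (SD, n = 3), with log2 fold changes of -2.05 (adjusted p = 1.21e-08) in OC and -1.55 (adjusted p = 5.04e-07) in OL+EV against DMSO+EV (limma). GSPT1, the release factor eRF3a, fell in both, at -0.81 in OC and -0.68 in OL+EV. MCTS1, a partner of DENR in recycling and reinitiation, fell in OC against DMSO+EV, at -0.63 (adjusted p = 0.000303). Its calls in OL+EV against DMSO+EV and in OC against OL+EV were lost without OL+EV replicate 1 or 2, without DMSO+EV replicate 1 or 3, with totals equal outside mitochondrial genes or with no filter (adjusted p between 0.0551 and 0.106) for the one and without OC replicate 1, without OL+EV replicate 2 or 3, under median-of-ratios rescaling, with totals equal outside mitochondrial genes or with no filter (adjusted p between 0.0658 and 0.193) for the other.

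Of the enzymes that make hypusine on eIF5A, DOHH averaged 3.59 FPKM in OC, 4.78 in OL+EV and 8.40 in DMSO+EV and fell in both treated groups, at -1.04 (adjusted p = 4.68e-06) in OC and -0.71 (adjusted p = 0.000277) in OL+EV against DMSO+EV (limma). Its call in OC against OL+EV was lost without OC replicate 1 or 2, without OL+EV replicate 2 or 3, under median-of-ratios rescaling or with no filter (adjusted p between 0.0623 and 0.154). The partner enzyme DHPS was not called in any of the 3 comparisons. Of 9 mitochondrial translation factors, 6 fell and 1 rose in OC against DMSO+EV, 3 fell and 2 rose in OL+EV against DMSO+EV, and 4 fell in OC against OL+EV, with medians of -0.39, -0.20 and -0.16 in that order. Median-of-ratios rescaling gave 5 lower in OL+EV against DMSO+EV. TUFM, the mitochondrial elongation factor Tu, averaged 46.2 FPKM in OC, 91.9 in OL+EV and 135 in DMSO+EV, and MTIF3, a mitochondrial initiation factor, averaged 17.1 FPKM in OC, 18.4 in OL+EV and 10.4 in DMSO+EV. MRRF, the mitochondrial recycling factor, averaged 3.57 FPKM in OC, 5.33 in OL+EV and 6.27 in DMSO+EV, and GFM2, which acts with it, averaged 14.2 FPKM in OC, 18.7 in OL+EV and 12.6 in DMSO+EV.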

How the data were processed

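Libraries of H1975 RNA were deposited as 1 table of 34021 gene symbols, with a column per library matched to its sample by name. The file names no unit; its fractional values and unequal totals point to FPKM, which the authors would have made by scaling to transcript length and library size. STAR, Bowtie2 2.1.0, edgeR and hg38 appear in the submitters' processing notes without role or order. Counter, annotation and strand use: not given in the sources used here. Among genes under 0.1 FPKM in both of 2 libraries, the commonest ratio between them was shared by at most 0.377% of genes over 36 pairs, so no whole reads were recovered and count tests and counting intervals were not used.

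The test was limma (3.58.1, R 4.3.3; empirical Bayes with trend and robust variance) on log2(FPKM + 1), fitted once over the 9 libraries. It took the 13775 genes that reached 1 FPKM in at least 3 libraries, with Benjamini-Hochberg adjustment over them all, and was tested on simulated data. Members and lists were chosen with earlier results of these data known. Values in every library are given, per role and comparison, for up to 2 called members with the largest change and a higher group mean of at least 5 FPKM, and for a fixed set of central members. Related lists name up to 3 called genes per comparison by the same rule, and EIF2AK2, PPP1R15A, PDCD4 and EEF2K. Other genes named beside these were chosen after their values were seen.

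The labels number the replicates, but deviations of same-numbered libraries from their group means correlated at -0.315 to 0.0358, and 0 of 9 libraries correlated best with its own number in both other groups, so libraries were not paired. RefSeq (GRCh38.p14) matched 31617 symbols and lists a promoter for 43 of 51 members. The alternatives tried changed the variance trend, the scaling (median-of-ratios, quantile, or totals equal outside mitochondrial genes), the low-value filter (none, or 5 FPKM), the pseudocount (0.1 or 5), the groups in the fit, a replicate block, the fold threshold, the membership of the EIF4EBP genes and each library in turn. Python 3.11.15, pandas 2.3.3 and matplotlib 3.10.9 were used for sequences and figures.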

Additional observations from a re-analysis of the deposited data

How the results depend on the processing

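No member changed direction while called under any of 19 alternatives, or 18 for EIF2S3B, EIF4ENIF1, EIF5A2 and EIF5AL1, which the filter at 5 FPKM left untested. Of the members called, 37 of 42 in OC against DMSO+EV, 19 of 31 in OL+EV against DMSO+EV and 26 of 33 in OC against OL+EV stayed called under each alternative that tested them. Requiring a log2 fold change of at least 1 left 13 lower and 0 higher in OC against DMSO+EV, 3 lower and 0 higher in OL+EV against DMSO+EV, and 4 lower and 1 higher in OC against OL+EV. Median-of-ratios rescaling gave 2 called higher in OL+EV against DMSO+EV and 8 in OC against OL+EV, where it moved the members' median to -0.23, and a pseudocount of 5 moved that median to -0.24. The cause was not tested. Leaving out 1 library gave 35 to 39 lower and 3 to 4 higher in OC against DMSO+EV, 18 to 27 lower and 2 to 7 higher in OL+EV against DMSO+EV, and 24 to 31 lower and 4 to 6 higher in OC against OL+EV. Without the EIF4EBP genes, counts moved by at most 1. With the replicate number as a block, 3 members were called higher and 20 lower in OL+EV against DMSO+EV, 3 and 38 in OC against DMSO+EV, and 4 and 26 in OC against OL+EV. Correlations gave no sign of pairing by number, but with 3 libraries a group they cannot exclude it. The settings listed above for calls of single genes leave the block out. It also lost EIF1, EIF2B5, EIF2D, EIF3D, EIF3M, EIF4A3, EIF4B, EIF4G2 and EEF2 in OL+EV against DMSO+EV (limma adjusted p between 0.0526 and 0.0829). Lost too were EIF1 (0.0529) and EEF2K (0.0613) in OC against DMSO+EV, and EIF3M, EIF4G1 and EIF4H in OC against OL+EV (between 0.0503 and 0.0837). Alternatives for the related lists, the role groups and the ratios were chosen after seeing the data, and the number of genes called in the related lists (41, 27 and 33 in OC against DMSO+EV, OL+EV against DMSO+EV and OC against OL+EV) stayed within 1.5 times under each, though counts of single lists moved further. Read depth is unknown, so the precision of low members such as EIF5A2 and EIF2B3 cannot be given from counts, and with 3 libraries a group single libraries decide many calls near the threshold.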
